A study of Homo sapiens with 4 samples.

Results

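The genes described here are the core and variant histone genes of TU-177 cells, the protein-coding genes of the linker histones H1 and of the nucleosome core histones H2A, H2B, H3 and H4. Members were taken by symbol after each Ensembl identifier of the expression table had been matched to GENCODE 29, and 45 of the 28729 genes in the table met the rule. Of these, 32 were clustered genes, named HIST1, HIST2, HIST3 or HIST4 after their cluster, and 13 were variant genes, most of which lie outside the clusters. GENCODE 29 holds 91 genes that meet the rule, and the other 46 are not analysed here.

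Histones package DNA into nucleosomes, with H2A, H2B, H3 and H4 in the core and H1 on the linker DNA. The clustered genes are known as replication-dependent genes: they are transcribed mainly in S phase, have no introns in their classical form, and give messenger RNAs (mRNAs) that end in a conserved stem-loop in place of a poly(A) tail. Most variant genes are expressed through the whole cell cycle and give polyadenylated mRNAs. The core histone variants among them replace the core forms at particular sites. Some clustered genes also give polyadenylated mRNAs, which are known mainly from differentiating or non-dividing cells.

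TU-177 is an established line of human laryngeal squamous cell carcinoma (LSCC). Cells were transduced with lentivirus that carried a short hairpin RNA (shRNA) against SKA3 (SKA3-KD, n = 2) or a negative control shRNA (NC, n = 2), and in both groups the puromycin-resistant cells were harvested. SKA3 is a subunit of the complex that holds kinetochores on spindle microtubules. The labels give no hairpin sequence and no cloning step, and they do not say whether the libraries of a group came from separate cultures, so p-values measure only the spread between these libraries. Values are FPKM (fragments scaled to exon length and to library size). The library sizes behind them were not recorded but inferred from the FPKM values, and ranged from 9015056 to 11966130 fragments. How the RNA was selected, by poly(A) tail or by removal of ribosomal RNA, is not given in the sources used here.

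The targeted gene was lower in both knockdown libraries. SKA3 was at 9.40 and 9.64 FPKM in NC and at 3.77 and 4.12 FPKM in SKA3-KD, a log2 fold change of -1.09 (SE 0.07, limma adjusted p = 0.00806). Of the squamous markers measured, 5 stayed under 1 FPKM in every library. Among them KRT5 and KRT14 were at or below 0.103 FPKM and TP63 at or below 0.580 FPKM. KRT17 was at 45.6 and 49.1 FPKM in NC and at 29.4 and 35.7 FPKM in SKA3-KD. SFN was between 133 and 155 FPKM, EPCAM between 2.73 and 2.95 FPKM and DSC3 between 0.949 and 1.56 FPKM. Of the 9 squamous markers measured, 1 of the 4 tested fell, KRT17, and their summed level was 194 and 210 FPKM in NC and 168 and 190 FPKM in SKA3-KD. Of the 8 markers of blood, vessel and stromal cells, 3 were tested and 1 fell, DCN, from 8.40 and 8.36 FPKM to 2.48 and 2.35 FPKM. Of all genes tested, 6.11% fell (limma, adjusted p under 0.05). PDGFRB went the other way without passing, from 2.88 and 2.46 FPKM to 3.19 and 4.13 FPKM (limma adjusted p = 0.165). COL1A1 went from 3.22 and 3.99 FPKM to 2.71 and 2.66 FPKM (limma adjusted p = 0.140). LYZ was at 0 and PTPRC at or below 0.00997 FPKM. The sum of the 8 markers was 14.6 and 15.1 FPKM in NC and 8.43 and 9.28 FPKM in SKA3-KD. The part of these differences in the histone values was not tested. In such bulk libraries, fewer cells with a given mRNA and less of it per cell cannot be told apart.

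Among the genes in the table, the variant genes had the higher summed level. How the RNA was selected is not known and many clustered genes were not matched, so the sums do not give the makeup of histone mRNA in the cells. The variant FPKM summed to 749 and 737 in NC, whereas the 32 clustered genes summed to 248 and 233 FPKM. The variant gene with the highest level was H1F0, a linker histone known from cells that divide little, at 168 and 163 FPKM in NC. A single clustered gene, the H2B gene HIST1H2BK, was at 107 and 96.9 FPKM in NC and made up 43.1% and 41.5% of the clustered sum. No other clustered gene came above 47.7 FPKM in any library.

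Genes with a mean of at least 1 FPKM were tested, which kept 26 of the 45 members, 17 clustered and 9 variant. Of the 17 clustered genes tested, 6 fell in SKA3-KD and none rose, where 6.11% of the 12645 genes tested fell and 6.16% rose (limma, adjusted p under 0.05). Of the 9 variant genes tested, 2 fell and none rose. In either direction, 12.3% of all genes tested passed. The median log2 fold change was -0.41 over the 17 clustered genes, -0.10 over the 9 variant genes and 0.01 over all genes tested. The sign was negative for 14 of the 17 clustered and 6 of the 9 variant genes, and for 48.4% of all genes tested. Both SKA3-KD libraries lay below both NC libraries for 11 clustered genes and 4 variant genes and above them for 1 and 2, where such separation held for 29.2% of all genes tested on the lower side and 32.3% on the higher side. Over the 17 clustered genes tested, SKA3-KD 1 had a median difference of -0.47 from the NC mean on the log2(FPKM + 1) scale, and SKA3-KD 2 one of -0.36. HIST2H3D, with a mean of 0.342 FPKM in SKA3-KD, passed the filter only through its NC libraries. At that SKA3-KD level it could be tested only because its NC level was higher. Without it, 5 of 16 clustered genes and 7 of 25 members fell, and the median over the 16 was -0.40.

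**Figure D1:**
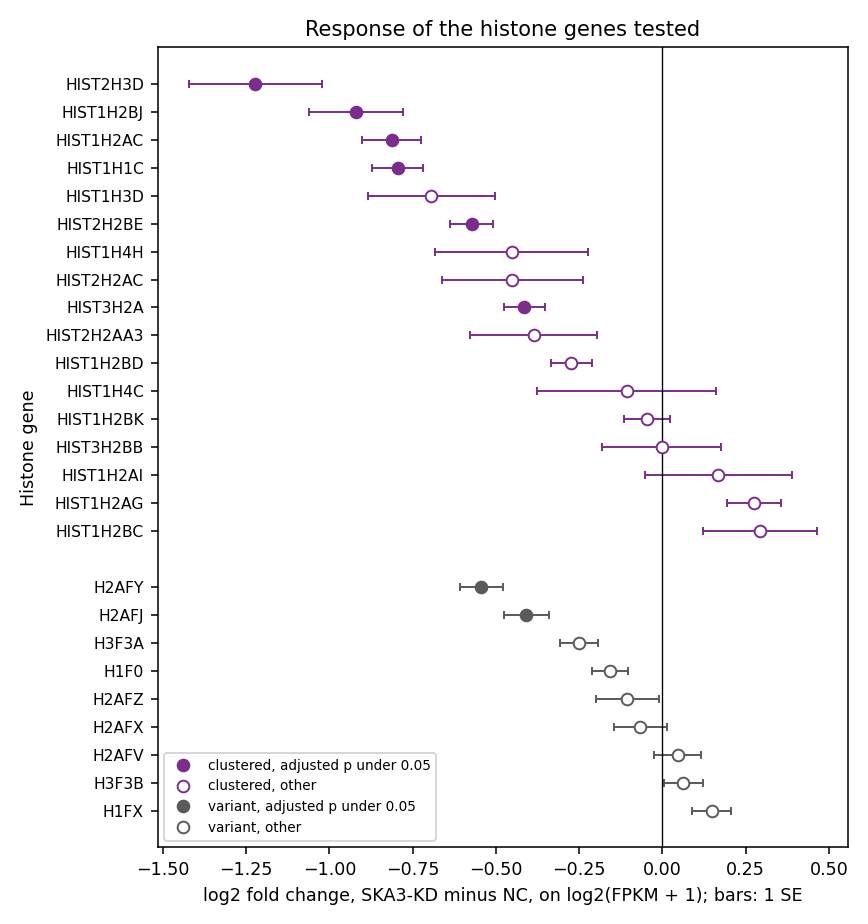
Log2 fold change of SKA3-KD minus NC on the log2(FPKM + 1) scale for the 26 histone genes tested, with clustered genes above and variant genes below, bars of 1 SE and filled points for an adjusted p under 0.05. The 6 filled clustered points and the 2 filled variant points all lie left of 0, and the open points lie on both sides of it.

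The replicate error sets how firm these calls are. With the reads behind the FPKM values as input (limma voom), 6 clustered genes and 3 variant genes fell and none rose, beside 12.0% and 13.4% of all genes tested that fell and rose, but without NC replicate 1, NC replicate 2 or SKA3-KD replicate 1 no member passed, and without SKA3-KD replicate 2 only HIST1H2AC did. These fits of 1 library against 2 called only 0, 0, 66 and 181 of all genes, so few members could pass in them, and the fold changes stayed near their size, between -0.72 and -0.87 for HIST1H1C and between -0.52 and -0.57 for H2AFY. Without a filter on low values, 129 of all genes and no member passed, and 4 libraries cannot give an exact permutation p below 0.33 for any single gene.

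Among the linker histones, the clustered gene fell and the variant genes did not pass the test. HIST1H1C, the most abundant clustered H1 gene here, was at 47.7 and 42.9 FPKM in NC and at 26.4 and 24.9 FPKM in SKA3-KD. Both knockdown libraries were thus well under both controls. The means were 45.3 ± 3.42 and 25.7 ± 1.09 (SD, n = 2 each), a log2 fold change of -0.79 (SE 0.08, limma adjusted p = 0.0114). HIST1H1C lies at chr6:26055787-26056428 on the minus strand (GRCh38), within the large cluster on the short arm of chromosome 6. The remaining 5 clustered H1 genes (HIST1H1A, HIST1H1B, HIST1H1D, HIST1H1E and the testis gene HIST1H1T) had at most 9 reads in any library and were not tested. H1F0 was at 168 and 163 FPKM in NC and at 150 and 146 FPKM in SKA3-KD, with a log2 fold change of -0.16 (limma adjusted p = 0.121). H1FX, another linker variant, was at 130 and 139 FPKM in NC and at 151 and 148 FPKM in SKA3-KD, with a log2 fold change of 0.15 (limma adjusted p = 0.163). The SKA3-KD libraries did not overlap the NC libraries for either variant, lower for H1F0 and higher for H1FX. The 3 variant H1 genes summed to 299 and 302 FPKM in NC and 301 and 294 FPKM in SKA3-KD, whereas the 6 clustered H1 genes summed to a mean of 47.4 ± 3.60 FPKM against 26.7 ± 1.03 FPKM (SD, n = 2 each).

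Of the H2A genes, 2 clustered and 2 variant genes fell. HIST1H2AC was at 12.6 and 13.3 FPKM in NC and at 6.42 and 7.47 FPKM in SKA3-KD (log2 fold change -0.81, SE 0.09, limma adjusted p = 0.0140). HIST3H2A, from the small histone cluster at the end of chromosome 1, was at 16.8 FPKM in both NC libraries and at 12.1 and 12.7 FPKM in SKA3-KD (log2 fold change -0.41, SE 0.06, limma adjusted p = 0.0232). The groups did not overlap for either gene, and HIST1H2AC had the larger difference. HIST1H2AG went the other way without passing the test: it was at 5.23 and 5.60 FPKM in NC and at 6.45 and 7.08 FPKM in SKA3-KD (log2 fold change 0.28, limma adjusted p = 0.0919), the only clustered gene tested whose knockdown libraries were both above both controls. HIST1H2AI was at 2.203 and 2.51 FPKM against 2.04 and 3.67 FPKM, so its knockdown libraries spanned the controls.

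H2AFY encodes macroH2A1, a large H2A variant linked to silent chromatin and the inactive X chromosome. It was at 12.8 and 12.5 FPKM in NC and at 8.20 and 8.52 FPKM in SKA3-KD, with means of 12.6 ± 0.188 and 8.36 ± 0.231 (SD, n = 2 each) and a log2 fold change of -0.54 (SE 0.06, limma adjusted p = 0.0152). It was also the deepest of the called genes, with 2711 and 2000 NC reads and 1479 and 1782 SKA3-KD reads, so counting error is the smallest there. H2AFJ, an H2A variant reported to accumulate in senescent cells, was at 8.75 and 9.11 FPKM in NC and at 6.48 and 6.47 FPKM in SKA3-KD (log2 fold change -0.41, SE 0.07, limma adjusted p = 0.0269). Neither gene's groups overlapped. The most abundant H2A variants did not pass. H2AFZ, a variant of promoters and enhancers, was at 110 and 94.1 FPKM in NC and at 98.8 and 90.8 FPKM in SKA3-KD (log2 fold change -0.10). Its close relative H2AFV was at 64.2 and 57.9 FPKM against 63.7 and 62.2 FPKM (log2 fold change 0.05), and H2AFX, the variant phosphorylated beside DNA breaks, was at 69.2 and 79.1 FPKM against 70.0 and 71.3 FPKM (log2 fold change -0.07). For these 3 genes the libraries of the groups overlapped. The sum over the 6 variant H2A genes was 266 and 253 FPKM in NC and 247 and 239 FPKM in SKA3-KD.

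The H2B genes held both the clustered gene of highest level, which differed by less than the spread between libraries, and a pair of genes that fell. HIST1H2BK was at 107 and 96.9 FPKM in NC and at 96.1 and 101 FPKM in SKA3-KD, and the groups overlapped (log2 fold change -0.05, SE 0.07, limma adjusted p = 0.692). HIST1H2BJ, from the same cluster, was at 4.86 and 4.03 FPKM in NC and at 1.61 and 2.16 FPKM in SKA3-KD (log2 fold change -0.92, SE 0.14, limma adjusted p = 0.0246). HIST2H2BE, the main H2B gene of the cluster on the long arm of chromosome 1, was at 11.2 and 11.6 FPKM in NC and at 7.38 and 7.29 FPKM in SKA3-KD (log2 fold change -0.57, SE 0.06, limma adjusted p = 0.0149). Both knockdown libraries were under both controls for HIST1H2BJ and HIST2H2BE. HIST1H2BD was also separated, at 16.2 and 15.7 FPKM against 12.8 and 13.2 FPKM, but stayed just outside the threshold (log2 fold change -0.27, limma adjusted p = 0.0519). HIST1H2BC was at 2.40 and 1.73 FPKM in NC and at 2.36 and 3.15 FPKM in SKA3-KD, with overlap and a log2 fold change of 0.29. The 9 clustered H2B genes summed to 145 and 133 FPKM in NC and to 123 and 129 FPKM in SKA3-KD, and without HIST1H2BK to 38.3 and 36.0 FPKM against 27.0 and 28.6 FPKM.

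Of the H3 genes in the table, the highest levels were those of H3F3A and H3F3B, which encode the same replacement H3 protein, with the same limits of RNA selection and matching. H3F3A was at 95.4 and 94.8 FPKM in NC and at 81.9 and 77.7 FPKM in SKA3-KD, just outside the threshold (log2 fold change -0.25, SE 0.06, limma adjusted p = 0.0508). It was the third variant gene that fell in limma voom (adjusted p = 0.00963). H3F3B was at 89.1 and 86.0 FPKM in NC and at 93.9 and 89.1 FPKM in SKA3-KD, with a log2 fold change of 0.06. The H3F3A groups were separated on the lower side, and those of H3F3B on the higher side by less than 0.1 FPKM. The clustered H3 genes were at low levels. HIST2H3D was at 1.83 and 2.43 FPKM in NC and at 0.478 and 0.206 FPKM in SKA3-KD (log2 fold change -1.22, SE 0.20, limma adjusted p = 0.0272), which rests on 9 and 9 reads against 2 and 1 and on a filter that it passed only through NC, so the p is no independent support. Scaled to library size, the ratio of its summed reads was 0.159 with an exact binomial 95% interval of 0.0300 to 0.545, which covers counting error only. HIST1H3D was at 2.51 and 3.98 FPKM in NC and at 1.70 and 1.47 FPKM in SKA3-KD (log2 fold change -0.69, limma adjusted p = 0.0799). CENPA, the H3 histone of centromeres, lies outside the rule and was at 19.7 and 23.0 FPKM in NC and at 27.3 and 27.6 FPKM in SKA3-KD (limma adjusted p = 0.0660).

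The 4 H4 genes were low, and neither of those tested, HIST1H4H and HIST1H4C, passed. HIST1H4H was at 2.99 and 2.15 FPKM in NC and at 1.14 and 2.13 FPKM in SKA3-KD (log2 fold change -0.45). HIST1H4C was at 1.41 and 1.34 FPKM against 0.710 and 1.84 FPKM, with overlap, on 7 and 5 reads against 3 and 9. These H4 genes encode the same protein and share much of their coding sequence, as do many clustered H2A, H2B and H3 genes, so reads may be split between copies in ways that the authors' counting decides. The H2A gene HIST2H2AA3 and the H3 genes HIST2H3A and HIST2H3C, which lie in duplicated sequence on chromosome 1, are the least certain for this reason.

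**Figure D2:**
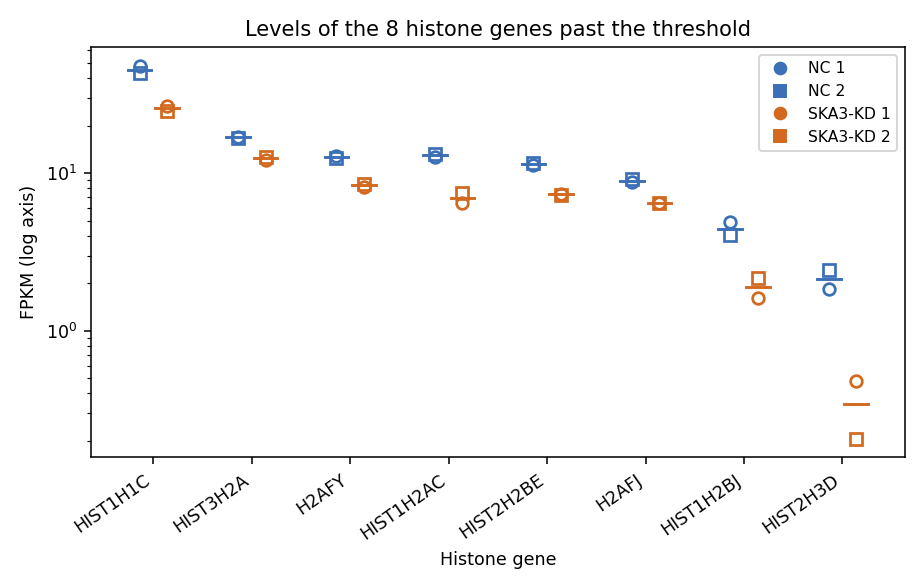
FPKM on a log axis in each library for the 8 histone genes that fell, ordered by mean level, with blue for NC, orange for SKA3-KD, circles for replicate 1, squares for replicate 2 and bars for group means. Every pair of orange points lies under its pair of blue points, and HIST2H3D is the lowest of the 8, at 0.478 and 0.206 FPKM in SKA3-KD.

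Summed over the class, clustered histone mRNA was lower and variant histone mRNA nearly level. The clustered sum went from 248 and 233 FPKM in NC to 186 and 196 FPKM in SKA3-KD, with means of 241 ± 9.96 and 191 ± 7.14 (SD, n = 2 each), a difference of -20.7%. Without HIST1H2BK, whose share of the sum was 51.8% and 51.5% in the knockdown libraries, the other 31 clustered genes summed to 141 and 137 FPKM in NC and to 89.5 and 94.95 FPKM in SKA3-KD, a difference of -33.6%. The 13 variant genes summed to 749 and 737 FPKM in NC and to 724 and 701 FPKM in SKA3-KD, a difference of -4.09%. The groups did not overlap for any of these sums. HIST1H1C alone took 19.3% and 18.4% of the clustered sum in NC and 14.2% and 12.7% in SKA3-KD.

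**Figure D3:**
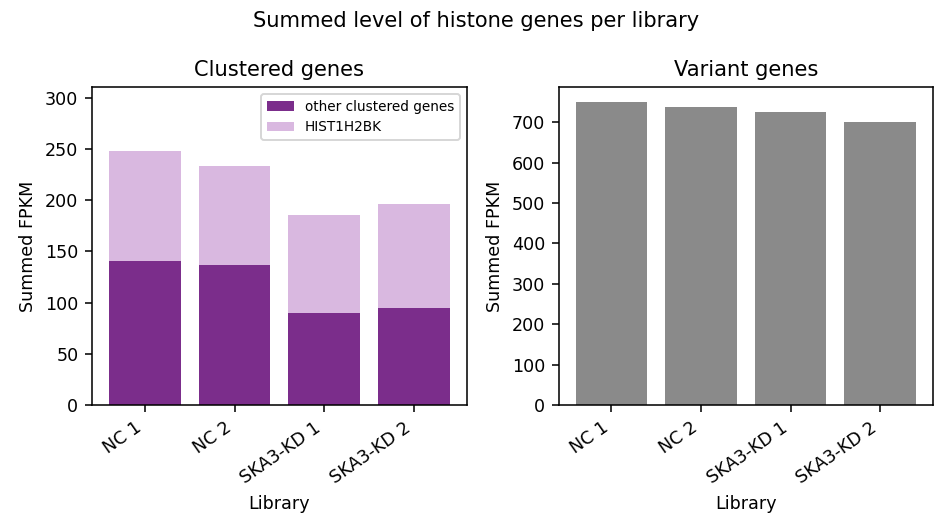
Summed FPKM of the clustered histone genes (left, with HIST1H2BK shown as the pale upper part of each bar) and of the variant histone genes (right) in each library, on axes that start at 0. The dark part goes from 141 and 137 FPKM in NC to 89.5 and 94.95 FPKM in SKA3-KD, whereas the pale part and the variant sum change little.

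The 19 members below the filter were also read. The 15 clustered ones had 151 and 120 reads in all in NC and 91 and 117 in SKA3-KD, or 12.6 and 13.3 against 8.94 and 9.92 in RPM (reads scaled to library size). Of these, 12 had the lower mean and 3 the higher mean in SKA3-KD. HIST1H2BN went up in both knockdown libraries, from 38 and 31 to 52 and 52 reads, while HIST4H4 went from 30 and 32 to 12 and 23 reads. HIST1H2BL had 5 and 2 NC reads and 1 in each SKA3-KD library, a ratio of 0.273 per library size with an exact binomial 95% interval of 0.0277 to 1.43. The 4 variant genes below the filter (H1FOO, H2AFY2, H2BFS and H3F3C) had at most 4 reads in any library. At this depth no difference could be detected for most of these genes.

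Many clustered H2A and H2B genes stand back to back, with 1 stretch of promoter between a pair that is transcribed in opposite directions. RefSeq promoter windows (GRCh38.p14, 250 bases before to 50 after the start) were matched for 40 of the 45 members, and 5 pairs of members shared most of a window. The windows below are shown because the genes of each pair can be set side by side, with HIST1H1C as a called gene of the linker family. Capitals mark 4 short words on either strand. The TATA box was searched as TATAAA, the box bound by the factor NF-Y as CCAAT, the octamer known from H2B promoters as ATTTGCAT, and the element known from H1 promoters as AAACACA. Copies on opposite strands can overlap, as those of the TATA box do in HIST1H2BJ.
HIST1H2AC (chr6:26123922-26124221, plus strand): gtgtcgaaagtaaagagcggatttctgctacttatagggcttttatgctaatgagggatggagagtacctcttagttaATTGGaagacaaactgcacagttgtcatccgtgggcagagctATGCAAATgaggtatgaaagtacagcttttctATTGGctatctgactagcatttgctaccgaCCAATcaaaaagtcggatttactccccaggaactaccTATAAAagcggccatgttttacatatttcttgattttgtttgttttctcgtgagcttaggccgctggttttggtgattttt
HIST1H2BJ (chr6:27132746-27133045, minus strand): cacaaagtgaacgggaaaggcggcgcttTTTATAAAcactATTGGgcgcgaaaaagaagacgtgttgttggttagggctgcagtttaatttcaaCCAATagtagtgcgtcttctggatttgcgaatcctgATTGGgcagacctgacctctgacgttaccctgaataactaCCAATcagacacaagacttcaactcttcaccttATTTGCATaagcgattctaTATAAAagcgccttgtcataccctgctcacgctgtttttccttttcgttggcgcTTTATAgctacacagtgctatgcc
HIST2H2BE (chr1:149886633-149886932, minus strand): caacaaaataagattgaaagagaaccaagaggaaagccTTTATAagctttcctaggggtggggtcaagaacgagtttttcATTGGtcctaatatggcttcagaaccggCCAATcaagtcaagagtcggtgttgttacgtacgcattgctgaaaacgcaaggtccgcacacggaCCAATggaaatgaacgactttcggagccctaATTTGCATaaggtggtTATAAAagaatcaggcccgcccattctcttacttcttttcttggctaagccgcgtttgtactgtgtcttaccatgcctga
HIST1H1C (chr6:26056421-26056720, minus strand): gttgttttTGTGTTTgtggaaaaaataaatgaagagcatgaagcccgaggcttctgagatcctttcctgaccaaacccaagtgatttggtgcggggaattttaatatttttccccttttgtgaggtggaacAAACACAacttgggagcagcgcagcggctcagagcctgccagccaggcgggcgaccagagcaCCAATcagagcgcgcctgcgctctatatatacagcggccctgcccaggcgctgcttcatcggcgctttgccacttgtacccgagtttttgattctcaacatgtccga

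The HIST1H2AC window shares 255 bases with that of HIST1H2BC on the opposite strand, and their mRNAs differed in the sign of their change. HIST1H2AC fell, from 251 and 200 reads to 109 and 147, whereas HIST1H2BC had 24 and 13 NC reads and 20 and 31 SKA3-KD reads. The HIST1H2BJ window shares 253 bases with that of HIST1H2AG, and again 1 partner fell, from 64 and 40 reads to 18 and 28, while HIST1H2AG had 140 and 113 NC reads and 147 and 187 SKA3-KD reads. In the pair HIST2H2BE and HIST2H2AC both values were lower, the second at 1.34 and 2.28 FPKM against 0.899 and 1.16 FPKM with only 4 to 9 reads a library. HIST3H2BB, the partner of HIST3H2A, was at 1.48 and 0.982 FPKM in NC and at 1.304 and 1.13 FPKM in SKA3-KD, with overlap. The fifth pair was HIST1H2BL and HIST1H2AI, of which the first was below the filter. The difference between the partners of a pair was not tested. The GENCODE 29 gene models of the partners in these pairs do not overlap. The authors' annotation and strand use are not given in the sources used here, so where their models of neighbours overlap, reads may be shared.

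**Figure D4:**
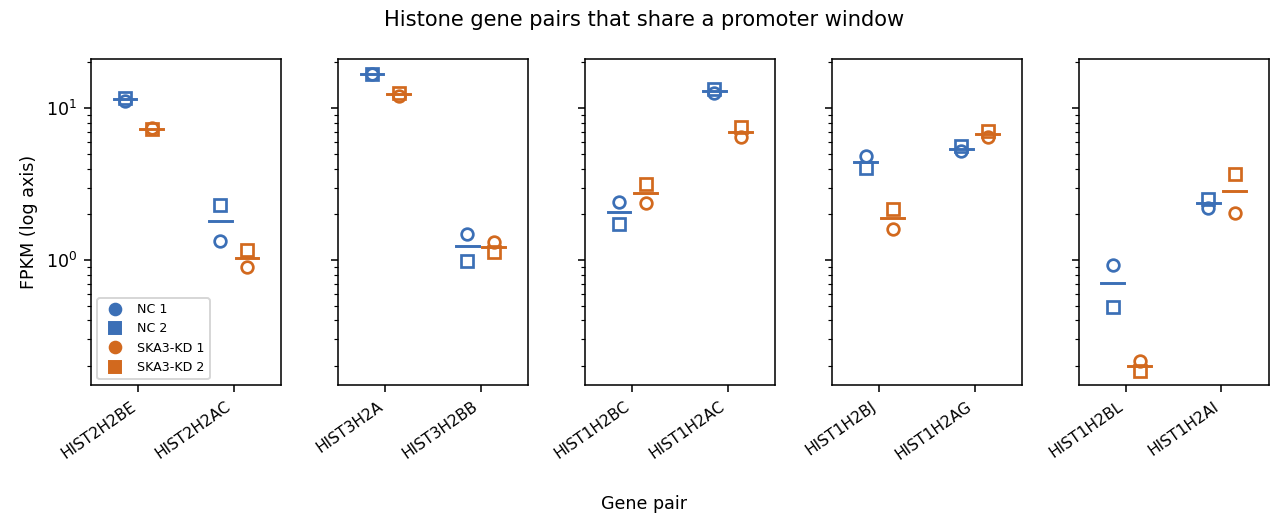
FPKM on a log axis in each library for the 5 pairs of histone genes whose promoter windows overlap, with blue for NC, orange for SKA3-KD, circles for replicate 1, squares for replicate 2 and bars for group means. HIST1H2AC and HIST1H2BJ fell, while the orange points of HIST1H2AG lie above the blue ones and those of HIST1H2BC overlap them.

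The same promoter words were found in members that fell and in members that did not. HIST1H2AC, HIST1H2BJ, HIST2H2BE and HIST3H2A fell, and each shares 253 to 271 window bases with a tested partner that did not. The groups compared therefore hold much of the same DNA, so their counts are not independent. TATAAA was in windows of 22 of 30 matched clustered genes, 4 of the 6 that fell and 8 of the 10 matched that were tested and did not fall, and in 11.5% of all 35116 RefSeq windows. CCAAT was in 27 of the 30, in all 6 that fell and 9 of the 10 that did not, and in 34.6% of all windows. ATTTGCAT was in 10 of the 30, 3 of 6 and 5 of 10, and in 1.77% of all windows. AAACACA was in 9 of the 30, 1 of 6 and 1 of 10, and in 5.64% of all windows. Of the 10 matched variant genes, 4 had TATAAA, 8 CCAAT, 1 ATTTGCAT and 1 AAACACA. These are matches of letters within the windows and not sites of binding. A gene was counted where any of its windows held the word, and some genes have more than 1 window, whereas the percentages count single windows.

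The stem-loop that ends a replication-dependent histone mRNA was searched in the GENCODE 29 transcripts of the members, as a stem of 6 paired bases on each side of a loop of 4. It was found in 18 of the 32 clustered genes and in 1 of the 13 variant genes, H2AFX. For 10 clustered genes the models stop fewer than 16 bases after the stop codon and so leave no room for it. It is shown for 3 genes that fell, which carry the most frequent form (11 members), and for HIST1H4H, which carries another, with the stem in capitals and the loop in lower case.
HIST1H2AC (chr6:26124669-26124684, plus strand): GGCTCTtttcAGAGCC
HIST2H2BE (chr1:149886188-149886203, minus strand): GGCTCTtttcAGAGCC
HIST3H2A (chr1:228457369-228457384, minus strand): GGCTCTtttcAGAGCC
HIST1H4H (chr6:26285131-26285146, minus strand): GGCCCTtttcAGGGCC

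In 12 clustered genes some transcript model ran at least 100 bases past the stem-loop, the kind of longer mRNA that can carry a poly(A) tail. Of the 6 clustered genes that fell, 3 had the stem-loop in a model, HIST1H2AC, HIST2H2BE and HIST3H2A, and all 3 had such a longer model. For 2 of the 6, the models leave no room for a stem-loop after the stop codon. Of the 17 clustered genes tested, 10 had the stem-loop and 7 a longer model. FPKM values count all transcripts of a gene together, so mRNAs that end at the stem-loop and longer ones cannot be told apart here.

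Of 24 measured genes of histone transcription and mRNA processing, 2 fell and 2 rose, beside 6.11% and 6.16% of all genes tested. Limma voom called 4 lower and 4 higher, beside 12.0% and 13.4% of all genes. CCNE1, the cyclin that with CDK2 switches on histone transcription at the start of S phase, fell from 14.8 and 12.8 FPKM to 10.2 and 9.44 FPKM (log2 fold change -0.45, limma adjusted p = 0.0407). NCBP1, the large subunit of the nuclear cap-binding complex, fell from 26.8 and 24.1 FPKM to 19.7 and 19.3 FPKM (log2 fold change -0.37, limma adjusted p = 0.0393). SYMPK and CPSF3, the scaffold and the endonuclease of the machinery that cuts histone mRNA after the stem-loop, rose by 0.37 and 0.31 on the log2 scale (limma adjusted p = 0.0370 and 0.0410). SLBP, the protein that binds the stem-loop, was at 50.7 and 47.1 FPKM in NC and at 46.8 and 49.5 FPKM in SKA3-KD (log2 fold change -0.02), and the groups overlapped. NPAT, the coactivator of clustered histone genes, was at 6.95 and 5.20 FPKM against 4.75 and 5.18 FPKM (log2 fold change -0.24, limma adjusted p = 0.302). The median log2 fold change over this list was 0.07.

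Histone chaperones carry histones to DNA. Of 31 such genes 30 were tested, of which 3 rose and 0 fell, beside 6.16% and 6.11% of all genes tested. Limma voom called 6 higher and 0 lower, beside 13.4% and 12.0% of all genes. TONSL, which binds newly made histones at replication forks, rose from 4.53 and 5.09 FPKM to 7.16 and 7.42 FPKM (log2 fold change 0.51, limma adjusted p = 0.0259). CABIN1, a part of the HIRA complex that deposits the replacement H3, rose from 6.49 and 7.28 FPKM to 9.57 and 10.3 FPKM (log2 fold change 0.47, limma adjusted p = 0.0320). SSRP1, a subunit of the H2A-H2B chaperone FACT, rose from 69.0 and 69.6 FPKM to 84.7 and 81.5 FPKM (log2 fold change 0.26, limma adjusted p = 0.0440). The log2 fold change was -0.07 for NASP, the chaperone of soluble H3 and H4, 0.16 for ASF1B, 0.07 for CHAF1A and 0.08 for CHAF1B, and none of these 4 passed. The median over the list was 0.05.

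S-phase genes and RNAs without a poly(A) tail are given beside the histone values because clustered histone mRNA is tied to both. Of 26 S-phase genes tested, 1 fell (FEN1, from 80.2 and 77.8 FPKM to 61.4 and 61.2 FPKM) and 3 rose, MCM6, RRM2 and CCNA2, with a median log2 fold change of -0.04. Limma voom called 5 of them lower and 3 higher, so the balance of calls turned with the test, and both counts are to be read beside the 6.11% and 6.16% of all genes that fell and rose in the first and the 12.0% and 13.4% in the second. RRM2 was at 36.5 and 36.4 FPKM in NC and at 54.6 and 52.1 FPKM in SKA3-KD. Of 5 RNAs without a poly(A) tail that were tested, all had a negative sign and 1 fell, with a median log2 fold change of -0.33. This was RMRP, the RNA of a ribonuclease, from 9.67 and 10.3 FPKM to 2.1997 and 2.53 FPKM (limma adjusted p = 0.00650). SNORD3A, with a mean of 0.735 FPKM in SKA3-KD, passed the filter only through its NC libraries, so its sign is no independent support. SNORD17 was at 11.6 and 10.8 FPKM in NC and at 7.05 and 11.8 FPKM in SKA3-KD, with overlap. Among 80 small nuclear RNA genes tested, 4 fell and 2 rose with a median of -0.44, and among 89 small nucleolar RNA genes 1 fell and 5 rose with a median of -0.03. These counts too are to be read beside the 6.11% and 6.16% of all genes. Few reads lay behind them, 28.4 to 36.9 RPM a library for all small nuclear RNAs and 46.9 to 50.5 RPM for all small nucleolar RNAs. The part of these RNAs in the values of the clustered histone genes was not tested.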

How the data were processed

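RNA of 4 libraries of TU-177 cells was sequenced, 2 of NC and 2 of SKA3-KD, grouped by the sample labels. The authors deposited FPKM values per gene in 1 table, listed by Ensembl identifier. The submitters' processing notes name Bowtie2 2.2.8, HISAT2, StringTie 1.3.1, Cuffdiff 2.1.1 and the hg19 build, with no role for each. The annotation release and strand setting are not given in the sources used here. Symbols and GRCh38 positions came from GENCODE 29 by identifier (27199 of 28729 matched), and coordinates are of GRCh38, not of the authors' build. Retired identifiers were not named, which is why members can be missing.

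SKA3-KD was compared with NC by limma 3.58.1 in R 4.3.3 (lmFit and eBayes with a trend) on log2(FPKM + 1), so fold changes of low genes are understated. Genes were kept where the mean over the 4 libraries reached 1 FPKM, which left 12645, with Benjamini-Hochberg adjustment over all of them and a threshold of 0.05. Library sizes were inferred as the commonest size at which 1 read on a GENCODE 29 exon length gave the FPKM value seen. Whole reads were inferred from the smallest FPKM steps of each gene, where 1 read is worth a fixed amount per gene and library. The reads recovered summed to more than the inferred size in every library, as 13284344 against 11966130 in NC 1, so both are estimates. For 17 members the GENCODE 29 exon length gave whole numbers within 0.005, and for 28 the nearest exon length that did was used, so their reads are estimates. Replicates of a group differed by more than sampling noise (chi-square per gene of 4.15 in NC and 4.01 in SKA3-KD), and no library was counted as a repeat of another.

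Genes named are all members past the threshold, the 10 clustered genes of highest mean FPKM, every variant gene of at least 1 FPKM, the genes past the threshold of the 2 lists of histone supply, and SLBP, NPAT, NASP, ASF1B, CHAF1A, CHAF1B and SKA3. Other members and CENPA, RMRP, the S-phase genes and the markers were named after their values were seen. The members and lists were chosen with earlier results of these data known. Alternatives were another pseudocount, other filters, scalings, variance models and thresholds, a replicate block, each library left out, limma voom on the reads and a correction for GC content and length. The fits were also run on simulated data, and the outcome is not reported here. The other steps ran in Python 3.11.15 (pandas 2.3.3, numpy 2.4.6, matplotlib 3.10.9, scipy 1.17.1).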

Additional observations from a re-analysis of the deposited data

How the results depend on the processing

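Leaving out 1 library each gave 0 to 181 calls over all genes (0 without NC replicate 1 or NC replicate 2), 0 to 1 over the members, 0 to 1 over the clustered, 0 over the variant and 0 over the histone supply genes. Leaving out a library could reverse the log2 fold change of HIST1H2AI (-0.143 to 0.479), HIST1H2BK (-0.115 to 0.0223), H2AFZ (-0.219 to 0.0095), H2AFX (-0.161 to 0.0289), H2AFV (-0.0272 to 0.119) and SLBP (-0.0721 to 0.0295), none of them called, and the GC and length correction reversed that of HIST1H2BK (0.041) and SLBP (0.0138). The 8 called members kept a negative sign throughout. Of 11 settings that kept all 4 libraries, HIST1H2BD passed in 5 and H3F3A in 7, lower in each, though neither passed in the main fit. Of 34 single genes named, 7 results of leave-one-out fits were reversed and 61 no longer passed. Without a filter, 129 genes passed, and 0 members, 0 clustered, 0 variant and 0 supply genes. Without the trend, 693 genes passed, with 1 variant and 1 supply gene. Limma voom called 3218 genes and 14 supply genes, and the GC and length correction 2413 and 13. At an unadjusted p under 0.05 there were 3958 genes, 13 members, 4 variant and 17 supply genes, and at an adjusted p under 0.1 2798 genes and 12 supply genes. The log2 ratio of the clustered sum was -0.34, and -0.59 without HIST1H2BK, a setting chosen after seeing the data.

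Libraries of the 2 groups share only a replicate number, and the correlation of same-numbered deviations was 0.0973, so the numbers were not taken to pair them. With the replicate block, 1967 genes passed, 965 lower and 1002 higher, and 9 members, all lower. Fewer than 10 reads a library limit HIST2H3D, HIST2H2AC, HIST1H4C and most members below the filter.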
